A study of Danio rerio with 416 samples.

Results

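Histone genes were followed in single cells of zebrafish embryos at 50% epiboly, the onset of gastrulation. The rows examined were all those named HIST, H1F, H2AF or H3F3, together with the numbered rows of the genomic clone si:dkey-108k21. They came to 33 of the 25208 gene rows of the full-length table and 30 of the 19205 rows of the unique molecular identifier (UMI) table. Of the 33 rows, 24 were counted as clustered copies, 11 of them named HIST and 13 from the clone, and 9 as variants (H1F, H2AF and H3F3). Each of the 416 samples was 1 cell, picked by hand from deyolked, dissociated embryos. Full-length SMART-seq2 libraries were made from 328 cells. Of these, 52 were from wild-type embryos of the TLAB strain and the others from MZoep embryos (allele tz57), in which neither mother nor embryo supplies working One-eyed pinhead (gene tdgf1), a co-receptor for Nodal ligands. A further 88 MZoep cells had UMI-tagged 5-prime libraries (batch p0) and no wild-type counterpart. The labels name no embryo or clutch and do not say that the genotypes share a background, so each genotype was 1 sample, no test was possible, and genotype, strain and clutch cannot be told apart.

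Histones package DNA into nucleosomes. Replication-dependent histone genes lie in clusters of many near-identical copies, are transcribed during S phase, and make mRNAs that usually end in a stem-loop, bound by the stem-loop binding protein SLBP, in place of a poly(A) tail. Variants such as H3.3 and H2A.Z are made from single genes with polyadenylated mRNAs and are deposited outside S phase as well. The molecule profiled here was polyadenylated RNA, per the labels. Early fish embryos divide fast on maternal stores, and at the stage sampled the cycles have lengthened and zygotic transcription is under way.

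Filtering left 292 full-length cells. MZoep had 79, 80, 61 and 25 of them in the batches p1, p2, p3 and p4 of library preparation, wild type had 3, 14, 18 and 12 (47 in all), and 86 of the 5-prime cells were kept. Levels are in FPKM, fragments per kilobase of transcript and per 1000000 mapped fragments, and a gene counts as detected from FPKM 1 on. The median cell had 7346 detected genes in MZoep and 6964 in wild type. Transcripts of tdgf1 averaged 47.5 FPKM in MZoep and 45.6 FPKM in wild type and did not separate the genotypes. The blastoderm markers pou5f3 and nanog were detected in every kept cell. Of the same list, sox3 was detected in 98.4% of MZoep and 95.7% of wild-type cells, and sox19b in 94.3% and 85.1%. Marker ta was detected in 55.5% of MZoep and 76.6% of wild-type cells. The summed enveloping layer markers (6 keratin and cytokeratin genes) averaged 230.3 FPKM in MZoep (0 to 8997) and 64.97 FPKM in wild-type cells (0 to 388.9). Summed germ cell markers averaged 83.3 FPKM in MZoep (median 32.9, highest cell 5529) and 35.99 FPKM in wild type (median 32.5, highest cell 86.3). Summed yolk syncytial layer markers averaged 2.28 and 1.41 FPKM, with a median of 0 in both. Rank correlations of these sums with the summed clustered copies were 0.04, -0.07 and -0.05 over MZoep cells and -0.01, -0.36 and -0.06 over wild-type cells, and the part of other cell types in the genotype differences was not tested. Genotype differences are given as log2 ratios of MZoep over wild type, from means weighted over batches in the same way in both genotypes and with 1 FPKM added. A gene was measured if detected in 5% or more of the cells of either genotype. The 15831 measured genes had a median log2 ratio of 0.12 (0.00 to 0.27 within batches). In MZoep 2.54% of them were lower by 2-fold or more, 5.15% were higher by 2-fold or more, and 7.69% were one or the other. Among genes reaching 5 FPKM these shares were 2.97% lower and 5.26% higher. Of the 33 rows 30 were measured, and h1fx, hist1h2bf and si:dkey-108k21.7 were not.

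The variants were at similar levels in both genotypes, with H2A.X as the exception. Of 8 measured variants 1 was higher in MZoep by 2-fold or more (5.15% of all genes) and 0 were lower (2.54% of all genes), and the median log2 ratio was -0.12. Without batch p2, 1 variant was lower, and the share of all genes in that setting was not counted. The H3.3 gene h3f3a was the highest member. It ranged over 261.7, 1161 and 3054 FPKM (lowest, median and highest cell) in MZoep and over 343.2, 1387 and 3172 FPKM in wild type. These ranges overlapped almost completely, and the log2 ratio was -0.27, with -0.31, 0.30, -0.60 and -0.43 within p1 to p4. With no filter on cells the ratio was 0.41. Its sister gene h3f3b.1, which encodes the same kind of histone, was lower in level, with 121.9, 414.5 and 739.4 FPKM in MZoep and 243.7, 450.1 and 803.8 FPKM in wild type, and its log2 ratio was -0.04.

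The H2A.Z genes h2afva and h2afvb make the H2A variant placed around promoters. Row h2afva averaged 224.8 FPKM in MZoep and 230.1 FPKM in wild type (log2 ratio -0.03). For h2afvb the means were 324.1 and 296.6 FPKM (0.13). Both differences were smaller than the spread of the within-batch ratios, which ran from -0.48 to 0.37 for h2afva and from -0.49 to 0.31 for h2afvb. Transcripts of h2afva were detected in 99.2% of MZoep cells and in all 47 wild-type cells.

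The gene h2afx encodes H2A.X, the histone phosphorylated around DNA breaks. Its values were 0, 71.7 and 669.8 FPKM (lowest, median, highest) in MZoep and 0, 39.98 and 160.5 FPKM in wild type. The bulk of both groups overlapped, and 47 MZoep cells lay above every wild-type cell. The means were 104.96 FPKM in MZoep and 49.6 FPKM in wild type and the log2 ratio was 1.07, close to the 2-fold limit. It was 1.53 and 1.58 within p3 and p4 but 0.58 and 0.22 within p1 and p2. It was 0.76 without p3, 0.93 without p4 and 0.95 with 10 FPKM added, all below 2-fold.

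The remaining variants were scarce. The linker histone gene h1f0 averaged 1.60 FPKM in MZoep and 2.13 FPKM in wild type with transcripts in 8.98% of MZoep cells (95% exact binomial interval 5.71 to 13.3, counting error over cells only) and 10.6% of wild-type cells (3.55 to 23.1). Its ratio changed sign between batches, from -2.11 in p1 to 2.26 in p2. The macroH2A genes h2afy and h2afy2, whose proteins carry a large extra domain, averaged 0.89 and 2.45 FPKM in MZoep and 1.18 and 4.78 FPKM in wild type. Row h2afy2 was detected in 27.3% (21.9 to 33.4) of MZoep and 23.4% (12.3 to 38.03) of wild-type cells. Its log2 ratio of -0.75 came mainly from p2, with -1.64 there and -0.33 and -0.06 in p3 and p4, and was -0.11 without p2. The linker histone row h1fx was detected in 4.90% of MZoep and 2.13% of wild-type cells.

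**Figure D1:**
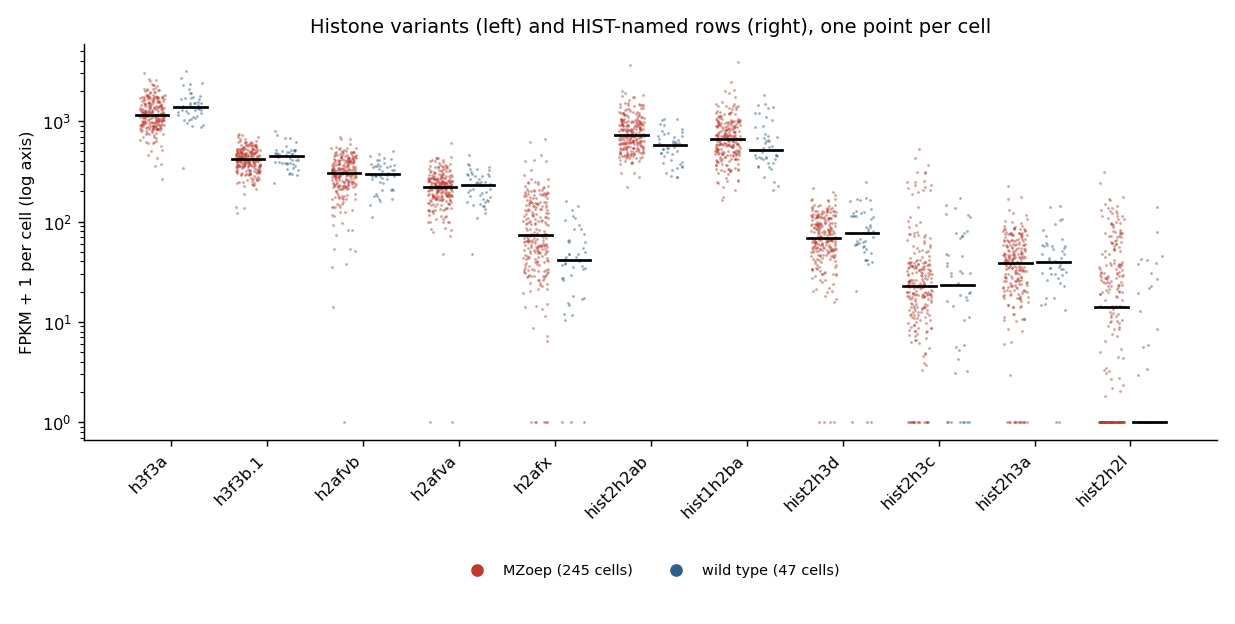
FPKM + 1 per cell on a log axis for the 5 variants with an MZoep mean of 5 FPKM or more (left) and 6 HIST-named rows (right), MZoep cells in red beside 47 wild-type cells in blue, with black bars at the medians. The clouds overlap for every gene, and h2afx and hist2h2ab have the most MZoep cells above every wild-type cell (47 and 44).

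Rows named HIST were likewise close between the genotypes. Of 10 measured rows 1 was higher by 2-fold or more (5.15% of all genes) and 0 were lower (2.54%), and the median log2 ratio was -0.02. Row hist2h2ab, named after an H2A gene, had the highest mean of the clustered copies in MZoep, at 800.3 FPKM, and the second in wild type, at 587.1 FPKM. It had 219.4, 727.3 and 3669 FPKM (lowest, median, highest) in MZoep and 277.8, 573.5 and 1054 FPKM in wild type, and 44 MZoep cells were above every wild-type cell. Its log2 ratio was 0.45, from 0.04 in p2 to 0.91 in p3. Row hist1h2ba, named after an H2B gene, averaged 682.2 FPKM in MZoep and 656.4 FPKM in wild type, the highest clustered copy there. It had 162.2, 666.4 and 3893 FPKM in MZoep and 206.3, 516.3 and 1834 FPKM in wild type. Its log2 ratio was 0.06, made up of batches of opposite sign (-0.77 in p1, 0.45 in p2, 0.70 in p3 and -0.70 in p4).

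The H3-named rows were far lower than these. Means were 76.6 FPKM in MZoep and 83.4 FPKM in wild type for hist2h3d, 44.9 and 39.8 FPKM for hist2h3c, and 43.3 and 46.4 FPKM for hist2h3a, with log2 ratios of -0.12, 0.17 and -0.10. The H4-named rows hist1h4d, hist1h4e and hist1h4l averaged at most 10.8 FPKM in either genotype and had log2 ratios of 0.61, -0.38 and -0.57. The linker histone row histh1l averaged 23.8 FPKM in MZoep and 28.8 FPKM in wild type (-0.27) and was detected in 69.4% and 70.2% of cells. Row hist2h2l was the single HIST-named row past 2-fold. Its values were 0, 13.2 and 313.7 FPKM in MZoep and 0, 0 and 138.5 FPKM in wild type, and 64.1% of MZoep cells (57.7 to 70.1) had it, against 38.3% of wild-type cells (24.5 to 53.6). The log2 ratio was 1.14, with 1.94, 0.57 and 1.98 within p2 to p4, and was under 2-fold in 3 of 11 alternative settings.

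The clone rows differed between the genotypes in both directions. Of 12 measured rows 4 were lower in MZoep by 2-fold or more and 3 were higher, with 2.54% and 5.15% of all genes past these limits, and their median log2 ratio was -0.82. All 4 lower rows of the 22 measured clustered copies, and 3 of their 4 higher rows, were clone rows, and the median of the 22 was -0.20. The number of lower rows was 2 without p2, 7 without p3 and 2 when each of p2, p3 and p4 had to show it. By that last count 1 row was higher. The shares of all genes under these settings were not counted. RSEM is named in the submitters' processing notes. Whether reads of these rows can be told apart was not measured, so the level of each single row is uncertain. RefSeq gives a histone name to 1 clone row, si:dkey-108k21.26, as the H2A gene hist1h2a10. The others carry the clone number only and are given by it. They were counted as clustered copies by name, and sequences were not compared. A clone number alone does not make a gene a histone gene, since RefSeq also lists the kinesin gene kif15 as si:dkey-108k21.1.

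Row si:dkey-108k21.23 was close to all or none. It had 0, 0 and 34.2 FPKM (lowest, median, highest) in MZoep and 88.7, 370.7 and 1110 FPKM in wild type. Every MZoep cell was below every wild-type cell, and 30 MZoep cells had a value above 0. How many of all measured genes separate the genotypes in this way was not counted. The batch-weighted means were 0.72 FPKM in MZoep and 441.5 FPKM in wild type, a log2 ratio of -8.00. Batch means in MZoep were 1.20, 0.89, 0.71 and 0.32 FPKM in p1 to p4, against 352.0, 718.7, 233.5 and 422.6 FPKM in wild type. The within-batch log2 ratios ran from -8.57 to -7.10. In the 5-prime MZoep libraries the row had 6 UMIs in 5 of 86 cells.

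The other lower rows were less extreme. Row si:dkey-108k21.21 had 0, 7.54 and 52.7 FPKM in MZoep and 5.4, 33.2 and 141.5 FPKM in wild type. Of the MZoep cells 89 lay below every wild-type cell, and 16 wild-type cells lay above every MZoep cell. Its log2 ratio was -2.15, and -2.87, -1.09 and -2.48 within p2 to p4. Row si:dkey-108k21.10 averaged 21.996 FPKM in MZoep and 47.7 FPKM in wild type (-1.08), but was higher in MZoep within p3 (0.37), and its ratio was -0.23 without p2. Row si:dkey-108k21.17 averaged 15.96 FPKM in MZoep and 34.3 FPKM in wild type (-1.06), again with the opposite sign within p3 (0.28), and its ratio was -1.61 without p3. Rows si:dkey-108k21.25, si:dkey-108k21.18, si:dkey-108k21.14 and si:dkey-108k21.28 had ratios of -0.92, -0.89, -0.75 and -0.38.

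Other clone rows were higher in MZoep. Row si:dkey-108k21.27 had 0, 70.4 and 443.6 FPKM in MZoep and 0, 12.9 and 79.1 FPKM in wild type, with 99 MZoep cells above every wild-type cell. Its log2 ratio was 2.20, and the batches p2, p3 and p4 each gave more than 2-fold (1.64, 2.25 and 2.67). Row si:dkey-108k21.12 had 0, 36.01 and 308.4 FPKM in MZoep and 0, 11.1 and 54.6 FPKM in wild type, with a log2 ratio of 1.69 and 83 MZoep cells above all wild-type cells. Row si:dkey-108k21.13 had 0, 44.2 and 473.7 FPKM in MZoep and 0, 13.6 and 73.6 FPKM in wild type (1.59). Within p2 both of these were under 2-fold (0.66 and 0.44). The highest clone row in MZoep, si:dkey-108k21.26, had 0, 268.8 and 1229 FPKM in MZoep and 0, 141.2 and 324.4 FPKM in wild type. Its log2 ratio was 0.89, and 81 MZoep cells exceeded every wild-type cell.

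**Figure D2:**
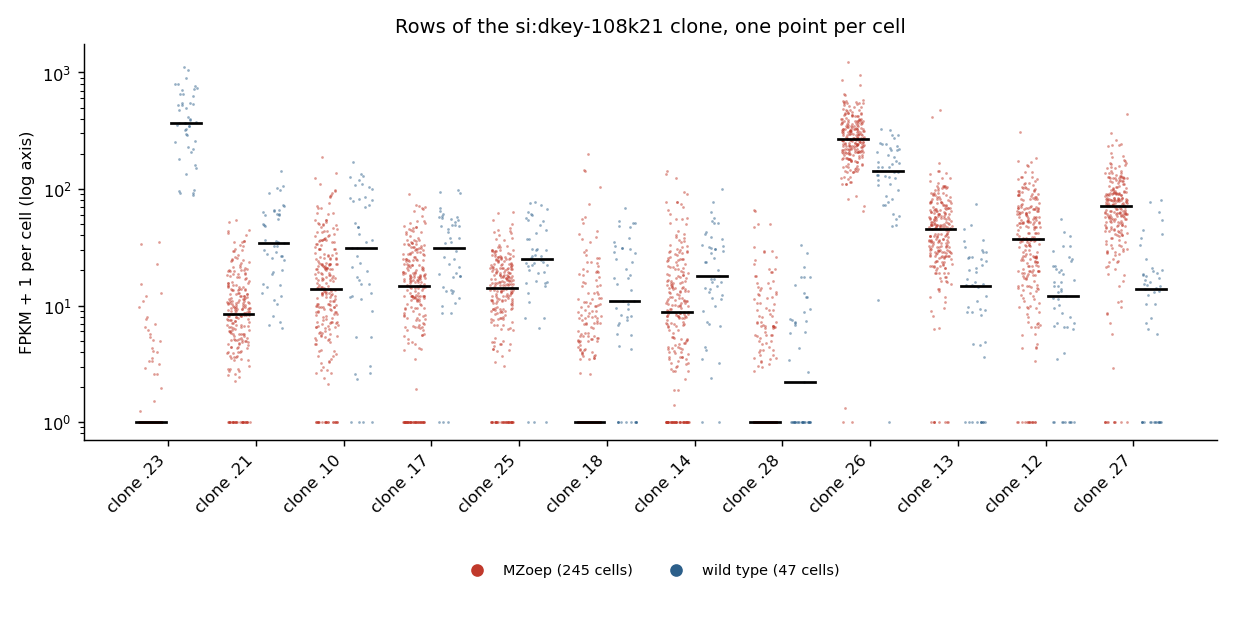
FPKM + 1 per cell on a log axis for the 12 measured clone rows, ordered by log2 ratio, with MZoep cells in red, 47 wild-type cells in blue and black bars at the medians. Row si:dkey-108k21.23 separates the genotypes with no overlap, and the rows at the right end are higher in MZoep.

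The clone rows were also summed. The clone sum averaged 549.3 FPKM in MZoep and 842.6 FPKM in wild type (log2 ratio -0.62), and was -1.39, 0.33 and -0.67 within p2 to p4. Row si:dkey-108k21.23 alone held 0.13% of the MZoep sum and 52.4% of the wild-type sum, while row si:dkey-108k21.26 held 51.5% in MZoep and 18.1% in wild type. Without si:dkey-108k21.23 the sum was 548.5 FPKM in MZoep and 401.1 FPKM in wild type (0.45), and without both rows it was 265.4 FPKM in MZoep and 248.6 FPKM in wild type (0.09). Ratios without si:dkey-108k21.23 differed between batches, from -0.19 in p2 to 1.33 in p3, where the wild-type sum of 232.9 FPKM was the lowest of any batch.

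Most rows outside the name rule that lie in or just after a RefSeq run of clone-named genes were past 2-fold. Of 4 such rows within the run described next, 2 were lower by 2-fold or more, 1 was higher and 1 was within 2-fold, and of 3 rows just after it 3 were lower, with 2.54% of all genes lower and 5.15% higher. In RefSeq annotation of assembly GRCz12tu, used only for gene order since the files were built on GRCz10, the clone genes form a run with hist2h3c, hist1h4l and other genes. In that run zgc:194989, which RefSeq also lists as si:dkey-108k21.22, averaged 2.17 FPKM in MZoep and 50.7 FPKM in wild type (-4.03). Row zgc:165555 averaged 13.6 and 69.1 FPKM (-2.26). Row si:dkeyp-46h3.6, the H3 gene h3c13a in RefSeq, was close between the genotypes, at 4.44 and 5.49 FPKM (-0.25). Row si:ch73-36p18.2, just beyond the last clone gene, averaged 26.1 and 134.7 FPKM (-2.32), si:ch73-36p18.4 averaged 0.45 and 10.7 FPKM (-3.01), and si:dkey-261m9.11 averaged 8.58 and 24.5 FPKM (-1.41). The kinesin gene kif15, whose protein acts on the mitotic spindle and whose gene lies within the run, was higher in MZoep, at 9.07 and 3.89 FPKM (1.04), with 0.12, 2.08 and 1.86 within p2 to p4. The members hist2h3c and hist1h4l of the same run were at 0.17 and -0.57. Its clone rows si:dkey-108k21.12, si:dkey-108k21.26 and si:dkey-108k21.28 were at 1.69, 0.89 and -0.38. The gene flnca, before the start of the run, was near 0 in both genotypes (0.09 FPKM each).

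**Figure D3:**
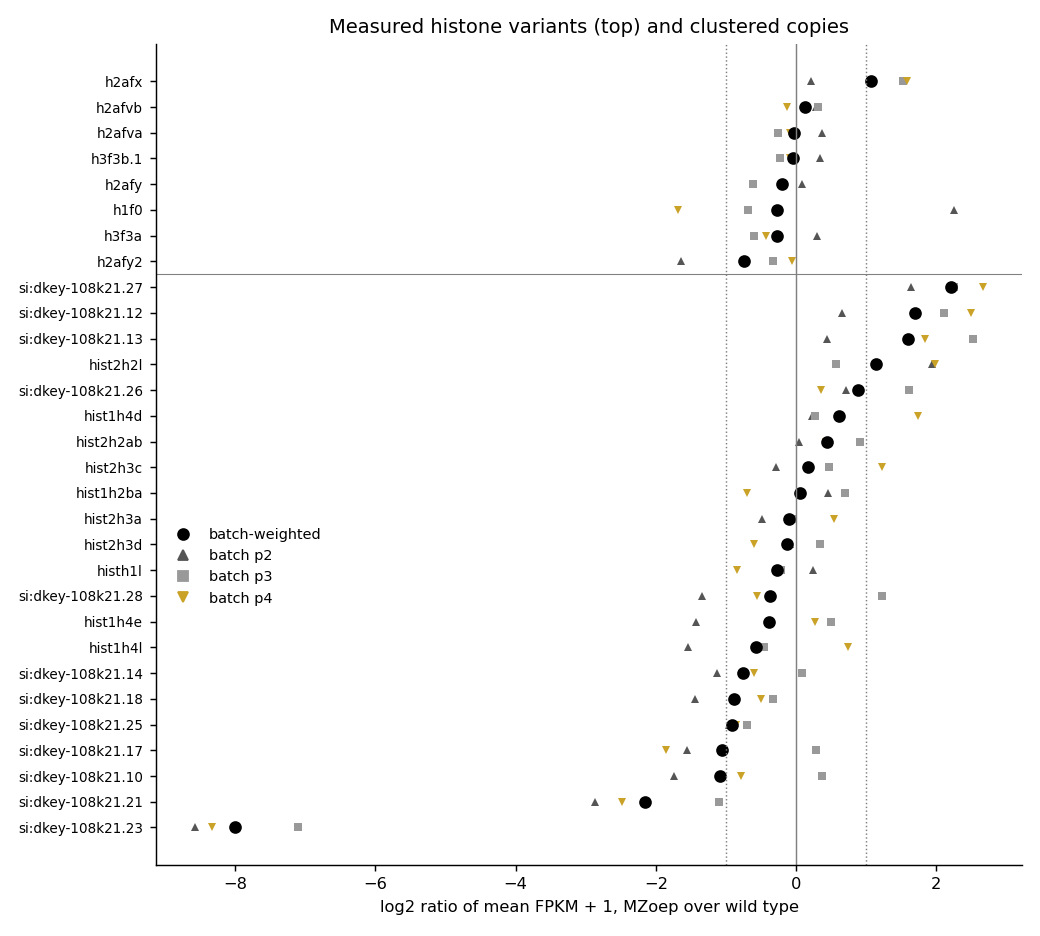
Log2 ratio of mean FPKM + 1, MZoep over wild type, for 8 measured variants (top) and 22 measured clustered copies. Black circles are batch-weighted values, other symbols are single batches, and dotted lines mark 2-fold. Variants gather near 0, and clone rows run from -8.00 to 2.20.

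With all rows of a class summed, neither class differed much between the genotypes. Clustered copies together averaged 2273 FPKM in MZoep and 2323 FPKM in wild type (log2 ratio -0.03), and variants 2307 and 2492 FPKM (-0.11). Both ratios changed sign between batches, and with no filter on cells they were 0.44 and 0.28. Without si:dkey-108k21.23 the clustered sum was 2273 FPKM in MZoep and 1882 FPKM in wild type (0.27). With it, clustered copies were at -0.34, -0.36, 0.61 and -0.27 in p1 to p4, and variants at -0.34, 0.31, -0.31 and -0.25. In single cells the clustered sum was 653, 2181 and 9564.5 FPKM (lowest, median, highest) in MZoep and 989, 2319 and 3939 FPKM in wild type. Together the members took a median of 0.78% of all FPKM in MZoep and 0.84% in wild-type cells.

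Within the named rows, variants and clustered copies had similar summed levels. The variant share of the summed members was 50.4% in MZoep (46.6 to 53.4% within batches) and 51.8% in wild type (41.9 to 62.9%). FPKM is scaled by transcript length, but polyadenylated RNA was profiled, and mRNAs of clustered copies usually lack a poly(A) tail. The shares therefore describe captured RNA, and how much of either class was captured was not measured. The H3.3 rows summed to 1648 FPKM in MZoep and 1908 FPKM in wild type, against 164.8 and 169.6 FPKM for the 3 HIST2H3 rows, so H3.3 rows held 90.9% in MZoep and 91.8% in wild type of the captured sum of both. For H2A the order was the other way. The H2A.Z rows held 33.6% in MZoep and 41.6% in wild type of the sum of h2afva, h2afvb, hist2h2ab and si:dkey-108k21.26. H2A.Z itself was level (548.9 and 526.6 FPKM, log2 ratio 0.06), and the 2 H2A rows were at 1083 FPKM in MZoep and 739.5 FPKM in wild type (0.55). Further histone rows that the name rule does not cover are in the table, so these shares describe the named rows alone. Among them, the H2A gene hist1h2a2 (row zgc:110434) was lower in MZoep, at 273.7 FPKM against 405.9 FPKM in wild type (-0.57). The H2A gene hist1h2a3 (row zgc:173652) was at 35.4 and 34.2 FPKM (0.05). The H2A.Z share with these rows included was not computed.

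Over single cells the clustered copies rose and fell together. The clone sum and the HIST-named sum shared no rows. Whether reads can be told apart between their rows was not measured, so both sums are not known to be independent. Their Spearman correlation within batches averaged 0.72 in MZoep cells (0.74, 0.62, 0.78 and 0.82 in p1 to p4). It was 0.28 in wild-type cells (0.28, 0.06 and 0.60 in p2 to p4, 44 cells) and 0.61 in the 86 5-prime cells. Cells of a batch share library preparation, and all values of a cell share its scaling. Over all measured genes, the median correlation with the clustered sum was 0.004 in MZoep, wild-type and 5-prime cells alike. Of 22 measured clustered copies, 21 correlated positively with the sum of the other copies in MZoep, 20 in wild type, and 19 of 20 in the 5-prime cells. The highest values in MZoep were 0.67 for si:dkey-108k21.26 and 0.65 for hist2h2ab, and the median was 0.28. The linker histone row histh1l did not follow the others (-0.03 in MZoep, 0.03 in wild type and 0.04 in 5-prime cells).

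The clustered sum had correlations near 0 with pcna, and with ccnb1 a weakly negative one in MZoep that rested on batch p2. The gene pcna encodes the replication clamp and was at 345.7 FPKM in MZoep and 291.0 FPKM in wild type (0.25). The gene ccnb1 encodes cyclin B1, which drives entry into mitosis, and was at 331.9 and 313.3 FPKM (0.08). The correlation of the clustered sum with pcna was -0.03 in MZoep, -0.11 in wild type and -0.02 in 5-prime cells. With ccnb1 it was -0.12 in MZoep, 0.02 in wild type and -0.11 in 5-prime cells. Within MZoep batches the values lay between -0.31 and 0.10 with pcna, and were -0.01, -0.44, -0.03 and 0.30 with ccnb1 in p1 to p4. The MZoep value with ccnb1 was 0.03 without p2 and 0.06 with no filter on cells. In wild type they lay between -0.13 and -0.10 with pcna and between -0.53 and 0.29 with ccnb1. Over all measured genes, the central 90% of correlations with pcna lay between -0.09 and 0.16 in MZoep and between -0.22 and 0.26 in wild type. With ccnb1 it lay between -0.08 and 0.16 in MZoep, between -0.20 and 0.31 in wild type and between -0.20 and 0.22 in 5-prime cells. The clustered sum was below it in MZoep. These ranges are of single genes, some detected in few cells, whereas a sum pools several rows, so the 2 are not alike. One by one, 0 of 22 clustered copies reached 0.2 in either direction with pcna or ccnb1 in MZoep. Over the 44 wild-type cells 2 copies reached 0.2 and 3 reached -0.2 with pcna, and 3 and 1 with ccnb1. Of 20 copies in 5-prime cells, 1 reached -0.2 with pcna and 3 with ccnb1, namely si:dkey-108k21.27 (-0.31), si:dkey-108k21.25 (-0.28) and hist1h2ba (-0.25). The share of all genes past 0.2 was not counted. In wild type the central 90% with pcna already passed 0.2 on both sides, and in 5-prime cells it lay between -0.20 and 0.17. These counts are therefore not read as particular to the copies. Over full-length MZoep cells pcna and ccnb1 correlated at 0.18 with each other, at 0.07 in wild type and at -0.21 in the 5-prime cells.

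**Figure D4:**
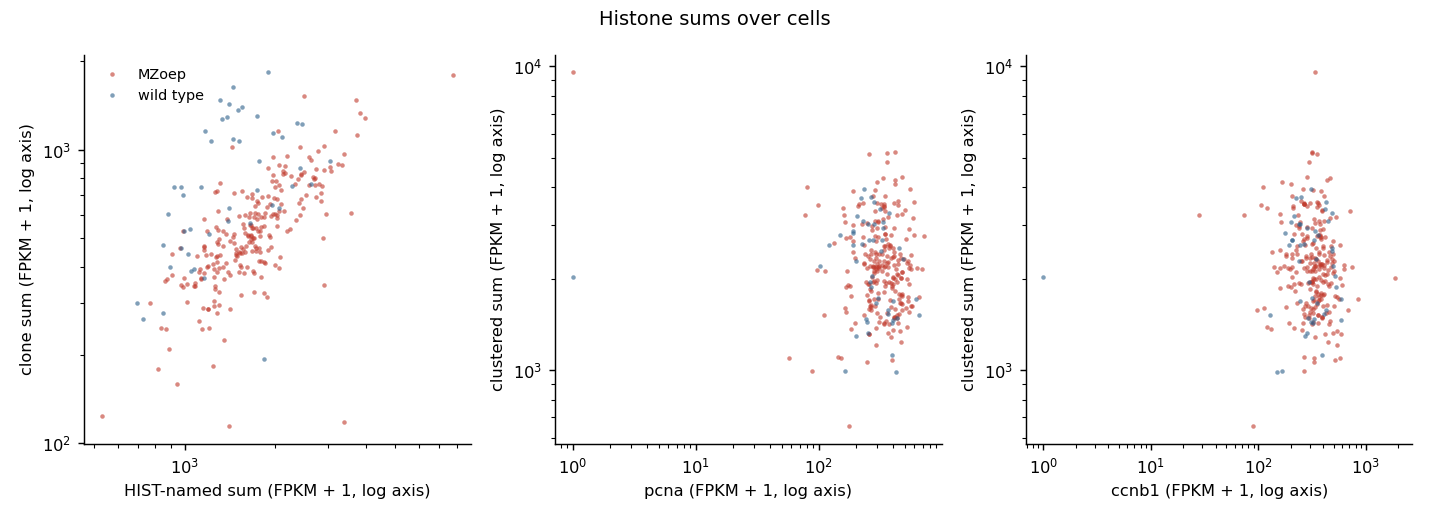
Each point is 1 cell, MZoep in red and wild type in blue, on log axes of FPKM + 1. Left, the clone sum against the HIST-named sum, which rise together; middle and right, the summed clustered copies against pcna and ccnb1, with no visible slope.

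In MZoep, wild-type and 5-prime cells the variant sum had higher correlations with the cycle rows than the clustered sum. In wild type this order did not hold after the rescaling described below. There the variant sum was at -0.24 with pcna and the clustered sum at -0.18, and with ccnb1 they were at -0.028 and -0.021. With pcna the variant sum was at 0.26 in MZoep (0.23, 0.29, 0.34 and 0.12 in p1 to p4), above the central 90% of single genes. It was -0.06 in wild type (-0.21, 0.27 and -0.39 in p2 to p4) and 0.09 in 5-prime cells. With ccnb1 it was 0.06 in MZoep, 0.20 in wild type and 0.27 in 5-prime cells. The wild-type value was -0.028 after the rescaling described next. When the 10 highest rows outside the members were left out and cells rescaled, the MZoep value with pcna was 0.10. The gene h3f3a had 0.23 with pcna in MZoep and 0.35 with ccnb1 in 5-prime cells, and without it the 5-prime value of the variant sum with ccnb1 was -0.068. The variant sum and the clustered sum were correlated at 0.18 in MZoep, 0.11 in wild type and 0.08 in 5-prime cells, with batch values in MZoep from -0.09 to 0.57. The clustered sum moved against the sum of the mitochondrial rows named mt-, with a correlation of -0.46 in MZoep (-0.41, -0.57, -0.64 and 0.21 in p1 to p4) and -0.15 in wild type. Rows without that name, such as ac024175.4 and ac024175.17, were not part of that sum. The row of highest level in the table, ac024175.4, averaged 230356 FPKM in MZoep and 245261 FPKM in wild type. All rows together came to 570395 FPKM in the median MZoep cell and 578988 FPKM in the median wild-type cell. Row ac024175.4 thus held a large part of all FPKM. It correlated with the clustered sum at -0.49 in MZoep and -0.29 in wild type. All these correlations share the scaling to total fragments. Row ac024175.4 was among the 10 rows left out in the rescaling. After that rescaling, in MZoep, the clustered sum correlated at -0.09 with pcna and -0.20 with ccnb1, and the variant sum at 0.10 and -0.14. The part of the mt- rows in these correlations, and of either these rows or ac024175.4 in those among the clustered copies, was not tested. With the number of genes detected, the clustered sum correlated at 0.05 in MZoep and 0.00 in wild type.

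Other H2A genes, and 1 rRNA gene, were among the rows most like the clustered sum. Over the 6349 further genes detected in 50% or more of MZoep cells, the highest was zgc:110434, which RefSeq calls the H2A gene hist1h2a2, with a correlation of 0.81 in MZoep, 0.53 in wild type and 0.58 in 5-prime cells. The H2A gene hist1h2a3, listed as zgc:173652, had 0.52, 0.30 and 0.34. Whether reads of these H2A genes and of the members can be told apart was not measured. Row zgc:158463, an rRNA gene in RefSeq, had 0.62 in MZoep, 0.47 in wild type and 0.27 in 5-prime cells, and averaged 3559 FPKM in MZoep and 4050.0 FPKM in wild type. Its part in the correlations among the clustered copies was not tested. Also high in MZoep were zgc:153405 (0.61), zgc:173552 (0.59), si:ch73-368j24.6 (0.56) and si:ch73-368j24.14 (0.56), with a pair of rows named by other genomic clones at 0.72 and 0.57. The tenth was ac024175.17 (0.52). The median over all these genes was 0.02. Beyond the H2A genes and the rRNA gene, the annotation used here gives these rows no role.

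Among listed genes that process histone mRNA, carry histones or act in the cell cycle, only slbp2 passed 2-fold in the batch-weighted ratio. The processing gene lsm11 stayed under it at 0.90 (13.9 FPKM in MZoep and 6.99 FPKM in wild type). Within p1 to p4, however, lsm11 was at -2.49, 1.35, 2.59 and 1.33. Of 13 measured genes of histone mRNA processing, 1 was higher in MZoep by 2-fold or more and 0 were lower, where 5.15% and 2.54% of all genes were. The median log2 ratio was 0.35, against 0.12 for all genes. That gene was slbp2, a maternal form of the stem-loop binding protein, at 13.8 FPKM in MZoep and 2.92 FPKM in wild type (1.91). It was at 3.24 and 3.04 within p2 and p3 but at -0.29 within p4. Its somatic counterpart slbp was at 121.4 and 94.9 FPKM (0.35) and correlated with the clustered sum at 0.19 in MZoep, 0.08 in wild type and 0.10 in 5-prime cells. None of 27 measured histone chaperone and deposition genes, 26 S phase genes or 28 G2 and M phase genes was 2-fold apart in either direction, with medians of 0.15, 0.29 and 0.22. The highest ratio among the S phase genes, 0.998 for mcm6, lay just under the limit. Over MZoep cells the median correlation with the clustered sum was 0.10 for S phase genes and 0.06 for G2 and M phase genes, and in 5-prime cells 0.01 and -0.09. The list of other histone genes had 14 names, of which 3 were in the table and none was 2-fold apart. RefSeq annotates 1 of these 3, zgc:158463, as an rRNA gene and gives zgc:153405 no role. The third, the maternal linker histone h1m, was at 155.7 FPKM in MZoep and 133.1 FPKM in wild type (0.22).

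The 5-prime MZoep libraries gave a similar order of histone levels. Over 86 cells with a median of 47195 UMIs, h3f3a led with 3377 UMIs per 1000000 UMIs (CPM; Poisson interval 3321 to 3434, counting error only), followed by hist2h2ab with 3194 CPM (3139 to 3250) and hist1h2ba with 2664 CPM (2614 to 2714). Next came h3f3b.1 (1834 CPM), si:dkey-108k21.26 (1788 CPM) and h2afvb (1659 CPM). All 6 had UMIs in every cell, and the lowest cell still had 62 UMIs of h3f3a and 74 of hist2h2ab. Clustered copies summed to 9674 CPM (9578 to 9770) and variants to 7966 CPM (7879 to 8053). Variants thus held 45.2% of the UMIs of the 30 rows (44.8 to 45.5, counting error only). In single cells this share ran from 28.0% to 57.9%, with a median of 46.2%. Set against mean FPKM of full-length MZoep cells, the 30 rows had a Spearman correlation of 0.96 and a Pearson correlation of 0.96 on log2 values. These are genes and not replicates, and UMI counts are not scaled by length.

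**Figure D5:**
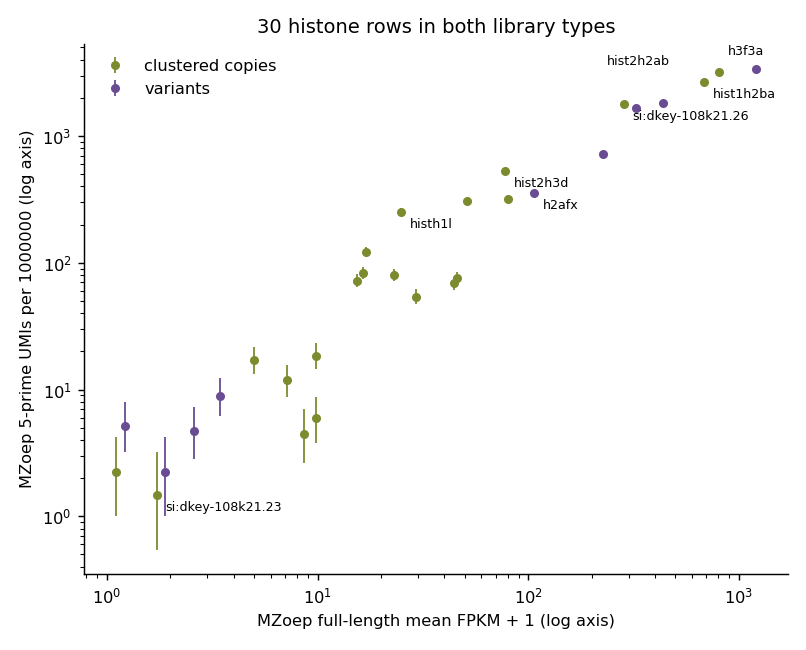
UMIs per 1000000 in 86 MZoep 5-prime cells against mean FPKM + 1 in MZoep full-length cells, both on log axes, for the 30 rows in both tables. Bars are Poisson intervals, green marks clustered copies and purple marks variants; si:dkey-108k21.23 lies at the low end of both.

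Most clone rows were detected in the 5-prime cells, which hold no wild-type counterpart. UMIs came to 316.3 CPM (299.2 to 334.0) for si:dkey-108k21.27 and 309.4 CPM (292.5 to 327.0) for si:dkey-108k21.13, each in all 86 cells. Rows si:dkey-108k21.10 and si:dkey-108k21.17, lower in full-length MZoep cells, had 79.8 CPM (71.3 to 88.98) in 81 cells and 122.4 CPM (111.9 to 133.7) in 85 cells. Row si:dkey-108k21.21 had 5.91 CPM (3.79 to 8.80) in 21 cells. That was below the 18.5 CPM of si:dkey-108k21.18, though both were near 8.8 FPKM in full-length MZoep cells (8.80 and 8.87). Row si:dkey-108k21.23 was the lowest, with 1.48 CPM (0.54 to 3.22) in 5 cells. Row si:dkey-108k21.12 has no row in the UMI table. Row hist2h3d was the highest H3-named row, with 531.5 CPM (509.3 to 554.4), and h2afx had 356.2 CPM (338.0 to 375.0) in all 86 cells.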

How the data were processed

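The authors deposited FPKM values of each gene for full-length cells and UMI counts for 5-prime cells. Bowtie2, RSEM and GRCz10 are named in the submitters' processing notes; no source used here states their versions, the annotation or how UMIs were collapsed. The other 328 columns of the count table held no 5-prime cells and were not used. Sequencing depth of the full-length cells is not stated; 5-prime cells had 29246 to 73231 UMIs.

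Kept were full-length cells with 1500 or more detected genes (292 of 328) and 5-prime cells with 500 or more (86 of 88), and no kept columns were identical. No clustering or doublet calling was made. Batch means were averaged over p1 to p4 with weights of 7.85%, 32.4%, 37.8% and 22.03% in both genotypes, proportional to the product of both cell numbers over their sum. The library batch is as given in the labels; shared processing of both genotypes within a batch is not stated. Correlations were made within batches of at least 6 cells, averaged by cell number, and carry no p-value. CPM was computed from all UMIs of the table. Of the 33 rows 17 had an Ensembl ID and 16 a RefSeq match by symbol or synonym. Members described in full were the 8 highest of each class and those at least 2-fold apart with a mean of 5 FPKM or more; si:dkey-108k21.26 was in the first set. Members and gene lists were chosen with earlier results of these data known. No sequences are shown. Ratio and correlation steps were tested on simulated data with Python 3.11.15, numpy 2.4.6, pandas 2.3.3 and scipy 1.17.1. Alternatives covered cell and gene filters, weights, pseudocounts, log means, rescaling, left-out batches and cells, and thinned UMIs.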

Additional observations from a re-analysis of the deposited data

How the results depend on the processing

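Of 452 values under alternative settings, 422 stayed within a set limit, 28 moved beyond it and 2 reversed. A change of sign counted as reversed only if the main log2 ratio was at least 1 in size, or the main correlation at least 0.2. Smaller values that changed sign were counted as within the limit or moved. For ratios and shares the limit was the standard deviation of the values within p2, p3 and p4. Left-out batches were thus judged against the same batches. For correlations in full-length cells it was the standard deviation over batches, and counts had a separate fold limit. Large changes could stay within it. Without p2, the ratio of h1f0 was -1.41 (against -0.27) and that of si:dkey-108k21.10 was -0.23 (against -1.08). Where no cause of a change is named it was not tested. The 4 lower clustered copies became 2 with 10 FPKM added, 2 without p2 and 7 without p3. The variant past 2-fold higher (h2afx) became 0 with 10 FPKM added, without p3 and without p4, and 1 variant was lower without p2. The share of all genes past 2-fold was not counted under any alternative setting. With no filter on cells the variant sum had a log2 ratio of 0.28, the clustered sum 0.44 (against -0.03), h3f3a 0.41 (against -0.27) and si:dkey-108k21.13 5.70 (against 1.59). The ratio of si:dkey-108k21.23 was -5.40 with 10 FPKM and -9.07 with 0.1 FPKM added, that of si:dkey-108k21.27 was 2.85 on mean log2 values, and that of h2afy was 0.15 without p3. Without the filter the variant sum correlated with pcna and ccnb1 at 0.41 and 0.28 in MZoep and with ccnb1 at 0.36 in wild type, and the clustered sum with pcna at 0.10 in wild type. That last correlation was -0.36 as Pearson's r, -0.092 given genes detected and -0.051 without hist2h2ab. Without h3f3a the 5-prime variant sum correlated at 0.33 with pcna and, reversed, at -0.068 with ccnb1. Some alternatives were added after seeing the data. When p2, p3 and p4 each had to pass, 2 clustered copies were lower, 1 was higher and 0 variants were higher. Rescaling without the 10 highest rows gave the variant sum 0.10 with pcna and -0.14 with ccnb1 in MZoep and, reversed, -0.028 with ccnb1 in wild type, and the clustered sum -0.18 with pcna in wild type. Rows si:dkey-108k21.12, si:dkey-108k21.13, si:dkey-108k21.21, si:dkey-108k21.23 and si:dkey-108k21.27 passed 2-fold in all 11 settings, and si:dkey-108k21.17 was on the other side of the limit in 6. Thinning to 30000 UMIs left out 1 cell. No paired analysis was possible because each sample is 1 cell, the replicate numbers only name cells, and no test was run.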

Other observations

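The cell with the highest clustered sum was an MZoep cell of p1, at 9564.5 FPKM, against 5241 FPKM in the next cell. Its hist1h2ba and hist2h2ab were at 3893 and 3669 FPKM, the highest values of these rows, and si:dkey-108k21.26 at 945.9 FPKM. In the same cell h2afx and pcna were listed at 0, ccnb1 was at 336.9 FPKM and h3f3a at 958.9 FPKM. It had 2803 genes at FPKM 1 or more, well under the MZoep median of 7346. Its clustered sum was not accompanied by a high variant sum (1739 FPKM).

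Several maternal oocyte transcripts were higher in MZoep, slbp2 among them. The list of maternal transcripts was chosen with earlier results of these data known, so its counts are not independent of them. Of 13 measured genes of that list, which includes slbp2, 5 were higher by 2-fold or more and 0 were lower (5.15% and 2.54% of all genes), with a median log2 ratio of 0.33, and -0.29 within p4. Besides slbp2 these were org (57.5 FPKM in MZoep and 10.3 FPKM in wild type, log2 ratio 2.37), btg4 (14.8 and 2.93 FPKM, 2.01), mos (4.77 and 1.55 FPKM, 1.18) and zar1l (21.01 and 9.96 FPKM, 1.01). Within p4, slbp2, btg4 and mos were lower in MZoep (-0.29, -0.72 and -0.38). The correlations of these 5 with the summed clustered copies over MZoep cells lay between -0.12 and 0.00.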
